A study of Mus musculus with 15 samples.

Results

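Lipid droplets are the stores of neutral fat in a cell, and in the liver their number and size set the degree of steatosis. A droplet is a core of triglyceride and cholesteryl ester under a single layer of phospholipid, on which coat proteins such as the perilipins sit and limit the access of lipases. Adipose triglyceride lipase (ATGL, gene Pnpla2) starts the breakdown of stored triglyceride, with ABHD5 as its coactivator and G0S2 as its inhibitor. Hormone-sensitive lipase (Lipe) and monoglyceride lipase (Mgll) act on the products.

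The 9 genes described here code for proteins of the droplet surface and its lipolysis in hepatocytes and were taken by gene name from a list. They are the perilipins Plin2, Plin3 and Plin5, the droplet proteins Cideb, Hsd17b13 and Hsd17b11, the ATGL inhibitor G0s2, and the lipase genes Pnpla2 and Pnpla3. All 9 were found among the 35540 genes of the table, and 8 passed the filter on low counts. Pnpla3 did not and is given by its counts.

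The libraries are bulk liver RNA from mice fed a high-fat diet for 8 weeks, 15 in all. There were 5 wild-type (WT) livers, 5 with the C247S knock-in allele of Txnip (C247S KI) and 5 Txnip knockouts (KO), and all groups shared the diet. Mice on other feed are not analysed here. TXNIP is the thioredoxin-interacting protein, and C247S replaces the cysteine through which it can bind thioredoxin covalently. By its title, the series asks whether that bond is needed for hepatic insulin resistance under this diet. The labels name no strain, sex, age or tissue range of the knockout. They also do not tie a library to an animal, and the spread behind every p-value is that between libraries, which may be technical. In the sample titles the KO libraries carry lower numbers, set apart from those of WT and C247S KI, whose ranges overlap. What these numbers stand for is not given, and anything that follows them cannot be told apart from the knockout.

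The total of estimated counts was 18047577 to 23379940 a library, and the tests ran over 13916 genes at once. Levels are in CPM, counts scaled to library size with TMM factors. Txnip was at 180.4, 196, 319.9, 218 and 197 CPM in WT 1 to 5, at 168, 280.2, 99.9, 208 and 205 CPM in C247S KI 1 to 5, and at 70.9, 123, 108, 74.2 and 119 CPM in KO 1 to 5. All KO libraries lay below all WT libraries, and C247S KI 3 lay within the KO range. Hepatocyte markers (8 of 8 measured, Alb among them) were abundant in every library, and their sum was 102789 to 122616 CPM in WT, with C247S KI at 87078 to 141618 and KO at 67989 to 93571, so KO lay wholly below WT. An index of 9 clock genes was 1.23 to 2.35 in WT, with C247S KI at 0.28 to 1.7 and KO at 2.34 to 3.17, on the log2 scale. WT and C247S KI overlapped. KO lay above C247S KI and, except for KO 1 against WT 2, above WT.

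Per unit of length, Hsd17b13, Plin2, Cideb and Hsd17b11 had the highest mean levels in WT and Plin3 the lowest of the tested members. In WT the level in TPM, which also divides by transcript length, was 634 ± 63.1 for Hsd17b13 and 583 ± 181 for Plin2 (SD, n = 5 each), which did not differ beyond their spread. Cideb followed at 359.8 ± 48.3 TPM, then Hsd17b11 at 237 ± 56.5 and G0s2 at 182 ± 50.5 TPM (SD, n = 5 each). Pnpla2 at 131 ± 37.6 TPM and Plin5 at 117 ± 41.7 TPM overlapped, and G0s2 overlapped with both. Plin3 was lower, at 35.8 ± 8.64 TPM, and Pnpla3 was at 0.433 TPM. In KO the order at the top was Cideb at 324 ± 17.1, Hsd17b13 at 278 ± 23.4 and Plin2 at 244 ± 38.9 TPM (SD, n = 5 each). Cideb was thus below Plin2 and Hsd17b13 in mean level in WT and above both in KO.

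In KO livers, transcripts of the droplet coat genes Plin2 and Hsd17b13 were lower than in WT and in C247S KI, while Cideb, Hsd17b11, G0s2 and Pnpla2 gave no difference past the threshold. Of the 8 members tested, 2 fell and 0 rose in KO against WT (edgeR quasi-likelihood test, adjusted p below 0.05), beside 4.19% of all genes lower and 2.56% higher. In KO against C247S KI, 2 fell and 0 rose, beside 5.85% lower and 4.41% higher. The members' median log2 fold change was -0.33 against WT and -0.26 against C247S KI, beside -0.01 and -0.03 over all genes. For the knock-in compared with WT, 0 of 8 members passed with edgeR, beside 0.0862% of all genes, and 2 had an unadjusted p under 0.05, beside 1371 of all 13916 genes. The KO group is common to the KO comparisons, and the WT group to those against WT, so these counts are not independent.

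**Figure D1:**
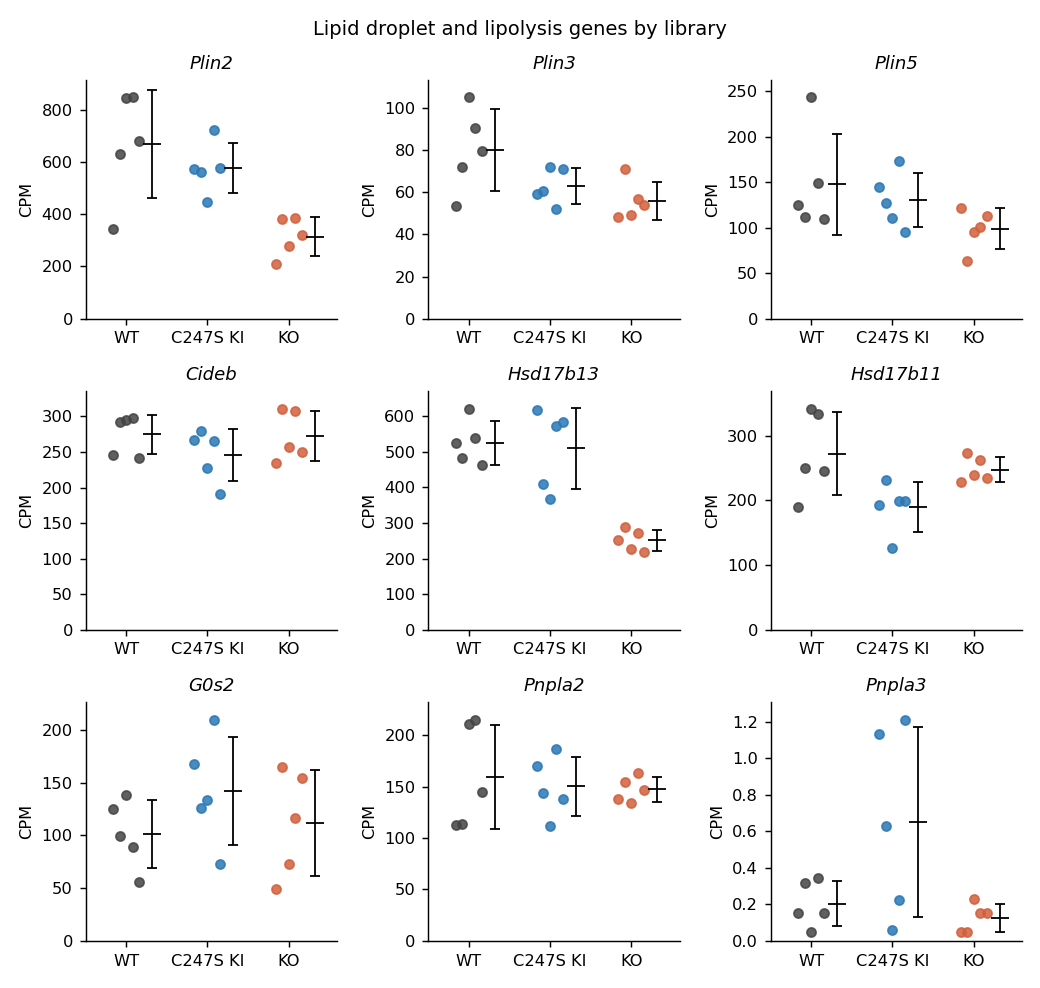
CPM of each of the 9 genes (vertical axes, from 0, each with its own scale) in 5 WT, 5 C247S KI and 5 KO libraries; points are libraries, and the bar beside them is the mean with its SD. The KO points of Hsd17b13 sit at 219 to 289 CPM, below the lowest C247S KI library at 367, and 1 WT library of Plin2 sits at 342 CPM, inside the KO range.

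Plin2, which coats droplets in nearly all cell types and whose protein is stabilised by the fat it covers, was lower in KO than in either other group. It is on chromosome 4 (86648386 to 86670060, minus strand, GRCm38; ENSMUSG00000028494). Its level was 342, 632, 844, 848 and 680.1 CPM in WT 1 to 5, then 574, 563, 449, 722 and 579 CPM in C247S KI 1 to 5. In KO 1 to 5 it was 208, 380.4, 279, 384 and 319.7 CPM. Every KO library was below every C247S KI library, as for 4.94% of tested genes, while WT 1 was below KO 2 and KO 4. KO livers had less Plin2 than WT by a log2 difference of -1.09 (SE 0.22, edgeR adjusted p = 0.00876), to 46.9% of the WT level. The difference from C247S KI was -0.88 (SE 0.22, edgeR adjusted p = 0.0196), and that call was lost without KO 3 (adjusted p = 0.0505). Between C247S KI and WT the log2 difference was -0.21, with a 95% interval from -0.68 to 0.25.

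Hsd17b13, a hepatocyte droplet protein of the 17-beta-hydroxysteroid dehydrogenase family that is linked to fatty liver disease in humans, fell with a smaller error than Plin2. It is on chromosome 5 (103955440 to 103977410, minus strand; ENSMUSG00000034528). In WT 1 to 5 it was at 524, 482, 621, 538 and 462 CPM, and in C247S KI 1 to 5 at 616, 409, 367, 572 and 582 CPM. In KO 1 to 5 it was at 252, 289, 227, 272 and 219 CPM, and no KO library overlapped with either other group. This absence of overlap in the lower direction was seen in 5.09% of tested genes against WT and in the share given above against C247S KI. Hsd17b13 fell by 1.06 in KO against WT (log2, SE 0.15, edgeR adjusted p = 0.000995) and by 1.02 against C247S KI (SE 0.15, edgeR adjusted p = 0.000773). Both calls held without each library in turn, with adjusted p of at most 0.00493 and 0.00337. The C247S KI and WT means, 509 ± 113 and 525 ± 61.5 CPM (SD, n = 5 each), differed by -0.05 (log2, 95% interval -0.36 to 0.27).

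The calls of Plin2 and Hsd17b13 did not hold once the clock index entered the fit, an alternative added after seeing the data. Against WT their log2 fold changes were then -0.74 and -0.82 (edgeR adjusted p = 0.304 and 0.0763), and against C247S KI -0.39 and -0.67 (0.726 and 0.315). Txnip, the gene knocked out, lost its calls in this fit as well. Its log2 fold change went from -1.17 to -1.14 against WT (edgeR adjusted p = 0.164). Against C247S KI the value of Txnip went from -0.96 to -0.93 (0.418), that of Plin2 from -0.88 to -0.39 and that of Hsd17b13 from -1.02 to -0.67. The index nearly separated KO from the other groups, so clock phase and knockout cannot be told apart in these libraries. Among markers of other cells, Kupffer cell and macrophage genes (15 of 15 measured) summed to 378 to 662 CPM in WT, with C247S KI at 244 to 424 and KO at 245 to 524. Stellate cell genes (8 of 8) summed to 432 to 507, 314 to 505 and 175 to 404 CPM in the same order, and the part of either in the falls was not tested. The 7 adipocyte markers summed to 26.7 to 49.2 CPM in WT, with C247S KI at 32.5 to 65.1 and KO at 8.77 to 13.1, and the 2 that could be tested, Cfd and Fabp4, fell in both KO comparisons. The defining adipocyte markers Adipoq, Lep and Plin1 reached at most 0.311, 0.0517 and 0.259 CPM in any library, and Lep was at 0 in all KO libraries. Endothelial genes (6 of 6) summed to 98.7 to 227 CPM in WT, 108 to 142 in C247S KI and, in KO, 119 to 193 CPM, and cholangiocyte genes (5 of 5) to 11.7 to 13.9, 11.0 to 30.2 and 7.83 to 16.7 CPM, all with overlap. Single markers of these lists fell in KO against WT: Alb of hepatocytes, Gpnmb and Trem2 of macrophages, Col3a1 of stellate cells, and Lyve1 and Pecam1 of the endothelium. Against C247S KI those that fell were Alb, Fgb, Gpnmb, Spp1, Lyve1 and the cholangiocyte gene Sox9. The summed hepatocyte, adipocyte and stellate cell markers were thus lower in KO than in WT. Singly, 1 of 8 hepatocyte markers, 1 of 8 stellate cell markers and the 2 tested adipocyte markers were called lower there. The part of cell makeup in the falls of Plin2 and Hsd17b13 was not tested. In bulk RNA, fewer cells of a type and less RNA per cell cannot be told apart.

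The promoters of these genes are shown because both fell in the same comparisons. The windows run from 250 bases before to 50 after the RefSeq start (GRCm38.p6), and capitals mark a nuclear receptor core element (AGGTCA, either strand) or an E-box (CACGTG), the element of clock factors.
Plin2 promoter, chr4:86670010-86670309, minus strand: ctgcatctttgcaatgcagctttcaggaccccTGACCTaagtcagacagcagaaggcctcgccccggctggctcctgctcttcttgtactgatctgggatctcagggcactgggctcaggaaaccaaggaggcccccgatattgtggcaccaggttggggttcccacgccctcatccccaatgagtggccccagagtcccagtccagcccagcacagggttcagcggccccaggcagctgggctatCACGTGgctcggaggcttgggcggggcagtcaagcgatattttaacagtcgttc
Hsd17b13 promoter, chr5:103977339-103977638, minus strand: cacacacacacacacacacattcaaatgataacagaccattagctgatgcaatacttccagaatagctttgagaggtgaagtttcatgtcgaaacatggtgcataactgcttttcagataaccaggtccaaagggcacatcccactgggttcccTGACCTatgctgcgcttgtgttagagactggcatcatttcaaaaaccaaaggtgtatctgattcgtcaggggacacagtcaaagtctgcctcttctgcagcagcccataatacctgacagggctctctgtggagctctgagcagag
Plin2 held 1 core element and 1 E-box, whose first base lies 4 bases before the start, and Hsd17b13 held 1 core element. Over all 32851 windows of this length, 16.3% held the core element and 7.15% the E-box. Of the windows of the other members, those of Plin5 held a core element, and 0 held an E-box. The full DR1 element of PPAR and RXR, a direct repeat of AGGTCA with 1 base between, was in 0 members' windows and in 0.0396% of all. The D-box of clock output factors (TTATGTAA) was in 0 members' windows and in 0.938% of all. A match is a description of letters and not evidence of binding.

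Hsd17b11, the neighbouring gene and closest relative of Hsd17b13 among the members, did not follow it. It lies on the same strand of chromosome 5 (103989762 to 104021919; ENSMUSG00000029311) and codes for another droplet-associated dehydrogenase. It was at 189.6, 249.9, 342, 334 and 246 CPM in WT 1 to 5 and at 228, 273, 239, 262 and 234 CPM in KO 1 to 5. C247S KI 1 to 5 had 193, 232, 126, 199 and 199.6 CPM, the lowest mean of the groups, with overlap. The log2 difference was -0.14 in KO against WT (95% interval -0.50 to 0.21, edgeR adjusted p = 0.659), -0.52 in C247S KI against WT (edgeR adjusted p = 0.342) and 0.38 in KO against C247S KI (edgeR adjusted p = 0.16). The ratio of Hsd17b13 to Hsd17b11 within a library, in TPM, ran from 2.25 to 3.85 in WT, from 2.46 to 4.45 in C247S KI and from 1.3 to 1.55 in KO. The KO ratios lay below those of both other groups. This ratio was not tested.

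**Figure D2:**
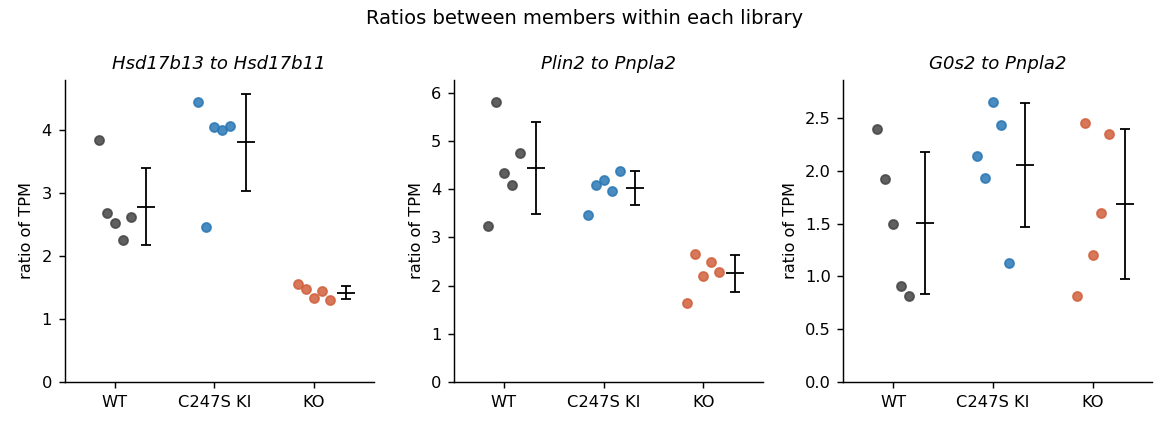
Ratios of TPM between pairs of members within each library (vertical axes, from 0), for 5 libraries a group; points are libraries and bars the mean with its SD. Hsd17b13 to Hsd17b11 is at most 1.55 and Plin2 to Pnpla2 at most 2.65 in KO, below every WT and C247S KI library, while G0s2 to Pnpla2 overlaps between all groups.

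The other perilipins were lower in KO without passing the threshold. Plin3, a perilipin that moves from the cytosol to new droplets (chromosome 17, 56277476 to 56292873, minus strand; ENSMUSG00000024197), was at 53.4, 72.2, 105, 90.6 and 79.6 CPM in WT 1 to 5. It was at 48.3, 70.9, 49.0, 57.0 and 54.1 CPM in KO 1 to 5, so WT 1 lay inside the KO range and KO 2 inside the WT range. The log2 difference was -0.52 (SE 0.16, edgeR adjusted p = 0.0592). It passed with DESeq2 (adjusted p = 0.0251), without WT 1 (edgeR adjusted p = 0.0129) and without KO 2 (0.0478). C247S KI had 51.9 to 71.9 CPM, and its difference from KO was -0.17 in KO against C247S KI (95% interval -0.51 to 0.17).

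Plin5, the perilipin of oxidative tissues that tethers droplets to mitochondria and binds ATGL and ABHD5, lies on chromosome 17 (56111601 to 56117596, minus strand; ENSMUSG00000011305). As a gene it was at 125, 112, 243, 149 and 109.8 CPM in WT 1 to 5 and at 145, 127, 111, 173 and 95.5 CPM in C247S KI 1 to 5. KO 1 to 5 had 122, 63.0, 94.9, 101 and 113 CPM. The groups overlapped, and the log2 difference was -0.58 in KO against WT (95% interval -1.06 to -0.10, edgeR adjusted p = 0.127). KO against C247S KI gave -0.40 (edgeR adjusted p = 0.268).

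The estimates of the Plin5 transcripts differed in how they moved. The annotation holds 2, both protein-coding and 1986 bases long, which share their coding exons, end within a few bases of each other and differ in the start: Plin5-201 (ENSMUST00000019808) begins upstream and Plin5-202 (ENSMUST00000113072) inside the first intron of the other. Plin5-202 took 48.3, 46.1, 53.2, 46.6 and 43.5% of Plin5 counts in WT 1 to 5, and 54.2, 51.8, 48.5, 61.5 and 47.0% in C247S KI 1 to 5. In KO 1 to 5 it took 37.5, 19.7, 36.6, 34.4 and 35.1%. All KO shares were below all WT and C247S KI shares.

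The Plin5-202 share was lower in KO (32.7 ± 7.33%) than in WT (47.6 ± 3.61%, SD, n = 5 each), a difference of -14.9 percentage points (two-sided exact permutation p = 0.00794, the smallest that 5 against 5 allows, and 0.0119 adjusted over 3 comparisons). The difference from C247S KI (52.6 ± 5.7%) was -19.9 points (exact permutation p = 0.00794, adjusted 0.0119), and C247S KI against WT differed by 5.04 points (exact permutation p = 0.127). Among 3969 genes with at least 2 transcripts above a mean count of 50, the share of the second most abundant transcript lay wholly lower in KO for 0.907% against WT and 1.71% against C247S KI. Plin5-201 ranged from 60.8 to 115 CPM in WT, up to 66.3 in C247S KI and from 51.2 to 76.6 in KO, which overlap. Plin5-202 ranged from 46.8 to 131, from 44.4 to 106 and from 12.6 to 46.0 CPM, so KO lay below WT and overlapped with C247S KI.

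In the fit of 32585 single transcripts the level of Plin5-202 did not pass in KO against WT (log2 -1.11, SE 0.35, edgeR adjusted p = 0.185), beside 0.463% of transcripts lower; with DESeq2 it did (adjusted p = 0.0335). With the clock index in the fit the level of Plin5-202 differed by -0.25 in KO against WT (edgeR adjusted p = 0.996) and by 0.15 in KO against C247S KI (0.968), so the fall was no longer seen. The share was not fitted with the index. Almost only reads at the first exons tell these transcripts apart, and the error of the authors' assignment is not in the test. The share was tested after the transcripts' values were seen.

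**Figure D3:**
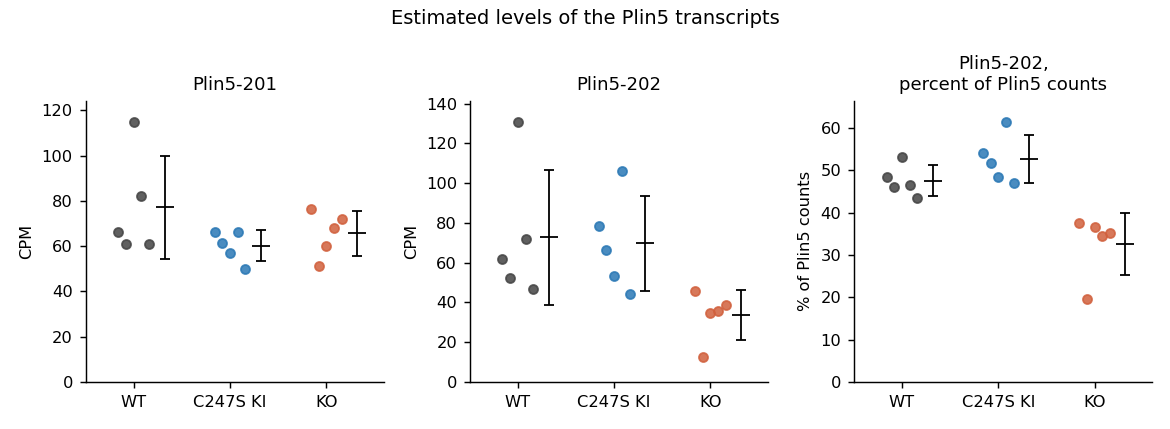
Estimated CPM of Plin5-201 and Plin5-202 and the share of Plin5-202 in Plin5 counts (vertical axes, from 0) in 5 libraries a group; points are libraries and bars the mean with its SD. The share is 43.5% or more in every WT and C247S KI library and 37.5% or less in every KO library, with KO 2 lowest at 19.7%.

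The windows around both Plin5 starts are shown because the estimates differ between them, with capitals for the core element AGGTCA.
Plin5 upstream start, chr17:56117499-56117798, minus strand: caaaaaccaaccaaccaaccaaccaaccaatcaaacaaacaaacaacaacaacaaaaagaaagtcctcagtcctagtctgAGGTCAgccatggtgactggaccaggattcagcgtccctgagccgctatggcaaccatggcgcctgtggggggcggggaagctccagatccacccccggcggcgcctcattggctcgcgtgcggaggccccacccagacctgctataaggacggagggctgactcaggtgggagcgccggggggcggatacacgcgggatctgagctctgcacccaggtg
Plin5 inner start, chr17:56117249-56117548, minus strand: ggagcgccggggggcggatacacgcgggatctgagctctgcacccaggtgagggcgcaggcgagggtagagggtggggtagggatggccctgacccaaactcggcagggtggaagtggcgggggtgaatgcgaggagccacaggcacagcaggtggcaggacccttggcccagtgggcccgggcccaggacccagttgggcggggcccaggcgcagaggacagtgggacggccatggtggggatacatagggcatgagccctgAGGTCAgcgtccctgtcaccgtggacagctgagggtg
Each held 1 core element, before the upstream start and after the inner start. The windows share the 50 bases that end the upper and open the lower.

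Cideb, which takes part in droplet fusion and in the lipidation of very-low-density lipoprotein (chromosome 14, 55754050 to 55758458, minus strand; ENSMUSG00000022219), was among the steadiest members. It was at 246, 292, 295, 298 and 242 CPM in WT 1 to 5, at 267, 279.9, 228, 265 and 191 CPM in C247S KI 1 to 5 and at 234, 311, 257, 308 and 249.6 CPM in KO 1 to 5. The log2 difference was -0.01 in KO against WT (95% interval -0.28 to 0.26, edgeR adjusted p = 0.964), which does not reach a 2-fold change either way. Its gene overlaps Nop9 on the other strand at the 3′ end. The labels do not name the strandedness of the libraries.

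G0s2, the inhibitor that binds ATGL directly, had the widest relative spread of the tested members in C247S KI and in KO, though not in WT. It is on chromosome 1 (193272161 to 193273217, minus strand; ENSMUSG00000009633). It was at 125, 99.6, 138, 89.0 and 55.6 CPM in WT 1 to 5, at 168, 126, 133, 209.5 and 72.4 CPM in C247S KI 1 to 5 and at 49.2, 165, 72.4, 116 and 154 CPM in KO 1 to 5. The groups overlapped throughout, with log2 differences of 0.14 in KO against WT (95% interval -0.54 to 0.82), 0.49 in C247S KI against WT (-0.19 to 1.17) and -0.35 in KO against C247S KI (-1.03 to 0.33). The interval for C247S KI reaches past a 2-fold rise, so these libraries do not show that G0s2 was level.

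Pnpla2, the gene of ATGL, gave no difference past the threshold and had a narrow range in KO. It is on chromosome 7 (141455198 to 141460743, plus strand; ENSMUSG00000025509). It was at 113, 114, 211, 215 and 145 CPM in WT 1 to 5, at 169.6, 144, 112, 187 and 138 CPM in C247S KI 1 to 5 and at 138, 154, 134, 163 and 147 CPM in KO 1 to 5. KO libraries lay between the low and high WT libraries. The log2 difference was -0.12 in KO against WT (95% interval -0.51 to 0.27) and -0.03 in KO against C247S KI (-0.42 to 0.36), with edgeR adjusted p of 0.753 and 0.939. The authors' estimates put a median of 73.8% of WT Pnpla2 counts on ENSMUST00000026583, which the annotation used here calls a nonsense-mediated decay transcript, and 17.5% on the protein-coding ENSMUST00000064151. In KO these medians were 77.2% and 18.2%.

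Ratios within a library set the coat against the lipase. Plin2 to Pnpla2, in TPM, ran from 3.23 to 5.81 in WT, from 3.47 to 4.39 in C247S KI and from 1.64 to 2.65 in KO, where every library was below those of the other groups. G0s2 to Pnpla2, the inhibitor to its target, ran from 0.815 to 2.4 in WT, from 1.13 to 2.65 in C247S KI and from 0.818 to 2.45 in KO, with overlap throughout. The ratios between perilipins overlapped between all groups as well. Plin2 to Plin3 ran from 12.3 to 18.4 in WT, from 11.8 to 25.9 in C247S KI and from 8.01 to 13.3 in KO. Plin5 to Plin2 ran from 0.149 to 0.327, from 0.149 to 0.232 and from 0.154 to 0.543 in the same order. None of these ratios was tested, and how often ratios of other genes set KO apart was not counted.

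Pnpla3, a relative of ATGL on droplets whose human gene is linked to fatty liver, was close to the detection limit. It is on chromosome 15 (84167837 to 84187236, plus strand; ENSMUSG00000041653). It had 3, 8, 1, 6 and 3 counts in WT 1 to 5 and 1, 1, 5, 3 and 3 counts in KO 1 to 5. C247S KI 1 to 5 had 26, 13, 1, 4 and 29 counts, so 3 of these libraries were above every WT and KO library and 2 were not. With no filter on low counts, edgeR gave an adjusted p of 0.0445 for KO against C247S KI and 0.571 for C247S KI against WT among 24732 genes. The fitted size at such counts depends on the prior count and is not given.

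The lipases and cofactors that act beside ATGL gave no difference past the threshold for the best known members. Abhd5, the ATGL coactivator, had 26.7 ± 3.79 CPM in WT against 22.5 ± 1.76 in C247S KI, with KO at 23.3 ± 2.04 (SD, n = 5 each). Its log2 difference was -0.20 in KO against WT (95% interval -0.42 to 0.02, edgeR adjusted p = 0.276). Lipe had a difference of 0.09 (-0.28 to 0.46) and Mgll of -0.23 (-0.62 to 0.15) in the same comparison. None of these 3 passed in any of the comparisons. Of the 17 lipases and cofactors tested beside the members (19 listed, with Abhd5, Lipe and Mgll among them), 2 fell and 0 rose in KO against WT. Over all genes 4.19% fell and 2.56% rose. The list median was -0.12, beside -0.01 over all genes. The 2 that fell were Lipa, the lysosomal acid lipase, by 0.69 (SE 0.15, edgeR adjusted p = 0.0135), and Ces1g, by 1.14 (SE 0.28, edgeR adjusted p = 0.0212). Ces1g is a liver carboxylesterase whose close paralogs could share its reads. The call of Ces1g was lost without WT 4, KO 1 or KO 3 (edgeR adjusted p = 0.0622, 0.0515 and 0.0505). In KO against C247S KI, 1 of the 17 fell and 1 rose, beside 5.85% of all genes lower and 4.41% higher. Lipa fell by 0.68 (SE 0.15), and Lipc, the hepatic lipase secreted by hepatocytes, rose by 0.96 (SE 0.16, edgeR adjusted p = 0.0013). Lipc differed by 0.5 in KO against WT and by -0.46 in C247S KI against WT, neither past the threshold (edgeR adjusted p = 0.0639 and 0.356). With the clock index the calls of Lipa, Ces1g and Lipc were lost. Lipa was then at -0.81 against WT and -0.85 against C247S KI (edgeR adjusted p = 0.105 and 0.228). Ces1g was at -1.11 against WT (0.24) and Lipc at 1.09 against C247S KI (0.125). The knock-in differed from WT in 0 of these 17 with edgeR.

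**Figure D4:**
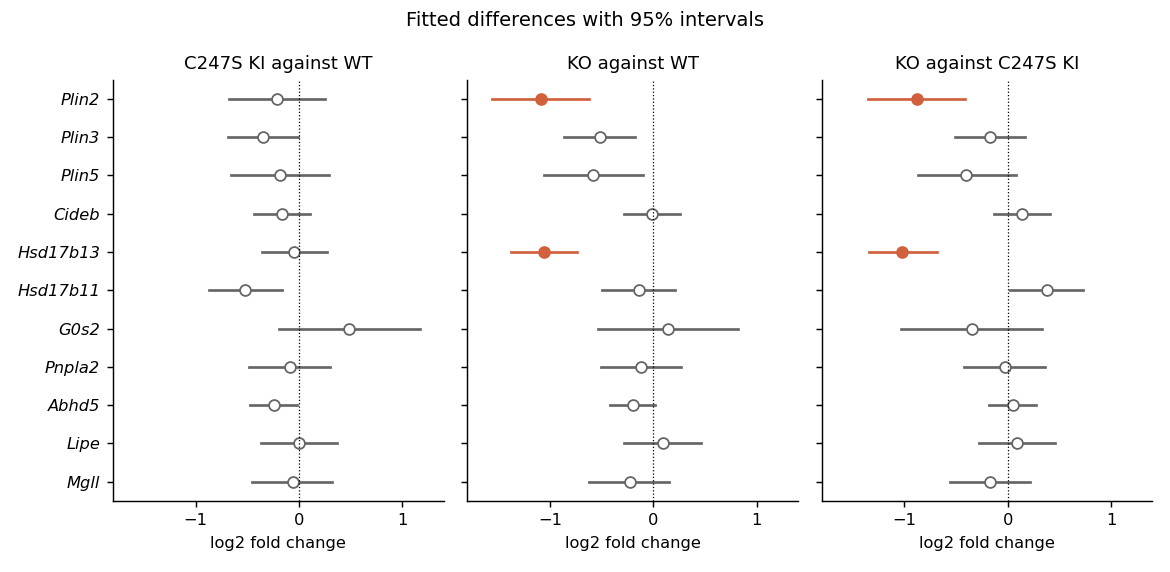
Log2 fold changes (horizontal axes) of the 8 tested members and of Abhd5, Lipe and Mgll in the 3 comparisons; points are edgeR estimates, lines 95% intervals, and filled orange points passed the threshold. Plin2 and Hsd17b13 are filled in both KO comparisons, at -1.09 and -1.06 against WT, and the intervals of Abhd5, Lipe and Mgll include 0 in both.

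Among 18 other droplet proteins tested (20 listed), 4 fell and 0 rose in KO against WT. Over all genes 4.19% fell and 2.56% rose. The list median was -0.02, beside -0.01 over all genes. Cidec, which fuses droplets, was at 8.85, 53.9, 139.7, 154 and 72.6 CPM in WT 1 to 5 and at 4.59, 6.38, 4.91, 9.22 and 6.35 CPM in KO 1 to 5. WT 1 lay within the KO range and the other WT libraries above it, and Cidec fell by 3.77 (SE 0.67, edgeR adjusted p = 0.00365). Hilpda, an inhibitor of ATGL induced by hypoxia and fatty acids, was at 3.06 to 5.55 CPM in WT, with C247S KI at 3.19 to 6.02 and KO at 1.34 to 2.2, with no overlap with KO. It fell by 1.12 against WT (SE 0.23, edgeR adjusted p = 0.00831) and by 1.31 against C247S KI (SE 0.23, edgeR adjusted p = 0.00201). Cidea fell to 0.139 CPM from 3.47 CPM, a size that is uncertain at so low a level, and its call was lost with limma-voom (adjusted p = 0.177). Snap23, a SNARE protein, fell by 0.39 (edgeR adjusted p = 0.0478), a call lost without each library except WT 3. In KO against C247S KI, 3 fell (Hilpda, Cidec and Cidea) and 0 rose, beside 5.85% of all genes lower and 4.41% higher. The call of Cidea was lost there with limma-voom (adjusted p = 0.252). It was also lost without C247S KI 2, C247S KI 5, KO 2, KO 3, KO 4 or KO 5 (edgeR adjusted p of 0.0535 to 0.0818). With the clock index all these calls were lost: Cidec was at -3.06 against WT and -2.32 against C247S KI (edgeR adjusted p = 0.191 and 0.448), and Hilpda at -1.08 and -1.25 (0.15 and 0.226). For the knock-in against WT, 0 passed with edgeR.

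Genes that share regulators with the members were counted from lists known for their control. The 22 genes listed for SREBP1c, LXR and ChREBP, which drive fat synthesis and also Hsd17b13, include the regulator genes Srebf1, Mlxipl and Nr1h3. Of these 22, 7 fell and 0 rose in KO against WT (median -0.56), beside 4.19% of all genes lower and 2.56% higher (median -0.01). Against C247S KI, 12 fell and 1 rose (median -0.85), beside 5.85% of all genes lower and 4.41% higher (median -0.03). Scd1, the stearoyl-CoA desaturase, had log2 fold changes of -3.82 against WT and -4.66 against C247S KI. Acacb, an acetyl-CoA carboxylase, had -1.92 and -2.79, Elovl5, a fatty acid elongase, had -2.02 in each, and Gpam, which starts glycerolipid synthesis, had -0.75 and -0.83. The 23 genes listed for PPAR-alpha, the fatty acid sensor that drives Plin2 and Plin5, include its own gene Ppara. Beside the same shares and medians of all genes, 2 of them fell and 0 rose against WT (median -0.16). Against C247S KI, 5 fell and 1 rose (median -0.10). Those against WT were Pdk4, which fell by 3.83 (SE 0.61), and Acot2, which fell by 1.34 (edgeR adjusted p = 0.0458), a call lost without any 1 of 8 of the 10 libraries and with the replicate block (0.0723). With the clock index Pdk4 was at -2.51 against WT and -1.83 against C247S KI (edgeR adjusted p = 0.187 and 0.474) and Acot2 at -0.48 against WT (0.763), and these calls were lost. Against WT, Acacb, Elovl5 and Gpam lost theirs as well (0.0803, 0.0812 and 0.0522), while Scd1 kept its call, at -3.68 (edgeR adjusted p = 0.0116). Against C247S KI, Scd1 kept its call at -4.44, and Fasn of the same list went from -1.68 to -2.4 and kept its own (edgeR adjusted p = 0.0141 and 0.0256). In that comparison Acacb went to -2.49 and Acss2, also listed, from -1.64 to -2.0, and both calls were lost (0.0645 and 0.0947). The knock-in differed from WT in 0 genes of either list with edgeR, with medians of 0.19 and -0.01.

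The genes most like each member over the 15 libraries were found by Pearson's r of log2 CPM among 12295 genes with a mean of at least 1 CPM. For Plin2 they were Cbfa2t3, Cgref1 and Slc16a1 (r = 0.93, 0.92 and 0.91), and their r within groups, on deviations from the group means, was 0.84, 0.84 and 0.87. For Hsd17b13 they were Defb1, Tmem38b and 2010003K11Rik (0.97, 0.95 and 0.94; within groups 0.91, 0.80 and 0.60). For Pnpla2 they were Abhd6, Dgat1 and Fitm2 (0.86, 0.84 and 0.84), which are also genes of lipid storage and breakdown, and within groups r was 0.91, 0.89 and 0.86. Cideb followed Coasy (0.95), Plin3 followed S100a10 (0.91), Hsd17b11 followed Ephx1 (0.91), Plin5 followed Sds (0.88) and G0s2 followed Tmem248 (0.79). Libraries share their depth and handling, so these values are descriptions.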

How the data were processed

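Liver RNA of 15 mouse libraries was measured by RNA-seq. The deposited table holds estimated counts per Ensembl transcript, and per the submitters' processing notes the tools named are Trimmomatic 0.39, kallisto 0.50.1 and DESeq2, with the build mm10. The authors' kallisto step divides reads between transcripts of a gene by a model, so transcript values carry an assignment error that gene sums mostly avoid. Counts were summed per gene symbol through GENCODE M21 by transcript ID without version. Of 115911 transcripts 114331 matched, and the unmatched held 0.366 to 0.459% of counts. The sums went into the fits without rounding.

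Genes were tested with edgeR 4.0.16 (R 4.3.3) by its quasi-likelihood test on all 15 libraries, with TMM factors, filterByExpr (minimum count 10, total 15) and Benjamini-Hochberg adjustment at 0.05. TPM was computed from the counts and annotated lengths. The share of Plin5-202 was tested with an exact permutation test (scipy 1.17.1). Alternatives were RLE factors, no filter, DESeq2 1.42.0, limma-voom (limma 3.58.1), only the groups compared, a replicate block and each library left out, and, added after seeing the data, a clock index covariate and the removal of WT 1, C247S KI 3 and C247S KI 5, which an earlier look at these data had set apart. The fits were tested on simulated data.

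The members, the gene lists and the marker lists were chosen with earlier results of these data known. Named genes are all members, Txnip, Abhd5, Lipe and Mgll, and of each list at most the 4 with the lowest p among those past the threshold. Promoters are from RefSeq (GRCm38.p6). Libraries of one group were compared in 30 pairs, and none was a copy of another.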

Additional observations from a re-analysis of the deposited data

Results flagged for a closer look

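In 33 groups of 5 libraries examined, 2 had a library far from the rest, and chance flags about 1 in 20 groups. Txnip in WT 3 was at 319.9 CPM, with the nearest WT library at 218 CPM and a gap of 0.728 of the whole range. The share of Plin5-202 in Plin5 counts in KO 2 was 19.7%, with the nearest KO library at 34.4% and a gap of 0.824 of the range. The other KO libraries, at 34.4 to 37.5%, were still below every WT and C247S KI library.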

How the results depend on the processing

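The falls of Hsd17b13 in KO held in every alternative run except the clock index covariate, and so did that of Plin2 against WT, while that of Plin2 against C247S KI was also lost without KO 3. With the clock index, 0 members were called in KO against WT and 0 in KO against C247S KI. Of 432 alternative values of the members 395 kept direction and side of the threshold, 5 lost and 4 gained a call and 28 turned sign. With each library left out, 2 to 3 members were called in KO against WT and 1 to 2 in KO against C247S KI. The cause of these changes was not tested.

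Genes called in C247S KI against WT, 12 in all, became 20 with no filter, 67 with DESeq2, 6 with only the 2 groups, 29 with the clock index and 4 to 24 with each library left out. In KO against WT, 939 became 1506 with DESeq2, 100 with the clock index, 1542 without WT 1, C247S KI 3 and C247S KI 5, and 521 to 928 with each library left out. In KO against C247S KI, 1427 became 64 with the clock index and 784 to 2272 with each library left out, lowest without KO 2 and highest without C247S KI 3.

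These log2 values turned sign, among them Plin5-202 in KO against C247S KI, from -1.05, and Plin5 in KO against WT, from -0.58. With the clock index, KO against WT gave 0.05 for Plin5, 0.03 for Cideb, 0.08 for Hsd17b11, 0.41 for Pnpla2 and 0.18 for Mgll, KO against C247S KI gave 0.48 for Plin5, 0.69 for Pnpla2, -0.04 for Abhd5, 0.43 for Mgll and 0.15 for Plin5-202, and C247S KI against WT gave -0.06 for Lipe. Without the 3 libraries named above, C247S KI against WT gave 0.03 for Hsd17b13, -0.05 for Lipe, 0.01 for Mgll and 0.15 for Plin5-202, and KO against WT gave -0.05 for Lipe. With no filter Lipe was -0.00 in C247S KI against WT. With each library left out, C247S KI against WT ran from -0.31 to 0.07 for Plin5, -0.12 to 0.06 for Hsd17b13, -0.18 to 0.05 for Pnpla2, -0.13 to 0.09 for Lipe, -0.22 to 0.03 for Mgll and -0.27 to 0.26 for Plin5-202. KO against WT ran from -0.06 to 0.04 for Cideb, -0.04 to 0.33 for G0s2, -0.21 to 0.02 for Pnpla2 and -0.04 to 0.19 for Lipe, and KO against C247S KI from -0.12 to 0.07 for Pnpla2. The share of Plin5-202 in C247S KI against WT was 6.46 points without WT 3 (exact permutation p = 0.0317).

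Same-numbered libraries of different groups deviated together with r over 0.1 in 4 of 15 pairs (r from -0.141 to 0.381), so the numbers were not taken to pair them. With the replicate block, 6 genes were called in C247S KI against WT, 1046 in KO against WT and 1594 in KO against C247S KI, and the same number of members, 0, 2 and 2. Pnpla3 is limited by depth, at 1 to 29 counts a library.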

Other observations

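WT 1 and C247S KI 3 were the lowest of their groups for several droplet and fatty acid genes, chosen after their values were seen. Plin2 was at 342 CPM in WT 1 and 449 CPM in C247S KI 3. Cidec was at 8.85 and 7.58 CPM in these libraries, Pdk4 at 7.3 and 9.01 CPM and Acot2 at 6.26 and 6.44 CPM.

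Of single transcripts of the members, the main Hsd17b13 transcript, Hsd17b13-202, was lower in KO than in WT (log2 -1.07, edgeR adjusted p = 0.0084) and than in C247S KI (-0.99, 0.00724). The main Plin2 transcript, Plin2-201, did not pass in either comparison (-1.09, edgeR adjusted p = 0.0512, and -0.86, 0.0892). Among minor transcripts, Plin2-202, which takes at most 0.5% of Plin2 counts, passed in both (-2.94, edgeR adjusted p = 0.0322, and -2.98, 0.0171). Hsd17b13-203, at most 1.1% of Hsd17b13 counts, passed against C247S KI (-2.49, 0.0122) and not against WT (-1.53, 0.137).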
